A study of Mus musculus with 45 samples.

Results

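EHMT2, also called G9a, is one of the enzymes that place the repressive H3K9me2 mark on histone H3, and the comparison described here asks what mouse embryonic stem cells (mESCs) transcribed after 7 d without it. The members are the 6 of 45 bulk RNA-seq libraries that the labels name as dTAG or DMSO for 7 d, 3 in each group. All carried the degron tag FKBP12F36V with 2 copies of the HA tag at both copies of Ehmt2, followed by an mCherry reporter, in KH2 mESCs, a hybrid line of C57BL/6J and 129S1 origin. The 3 libraries of a group came from 3 independent clones (17, 20 and K71), grown in serum and LIF on mouse embryonic fibroblast feeders. The treated group received 200 nM dTAG-13, a small molecule that sends the tagged protein to degradation, and the control group received DMSO for the same time. Reference points were the 24 h groups of the same clones, the 15 d groups of a washout experiment, and sorted MERVL-GFP+ and MERVL-GFP- cells treated with DMSO for 72 h. The sorted cells came from degron-tagged mESCs that also carried a GFP reporter transgene driven by promoter elements of the retroviral repeat MERVL. A clone is a cell line grown from a single cell, so the spread between clones holds differences between lines as well as between cultures.

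Mouse embryos switch on their genome at the 2-cell stage. At that point the retrovirus-derived repeat MERVL and a set of multi-copy gene families, among them Zscan4, Usp17l, Obox, Spopfm and Tdpoz, are briefly transcribed. In mESC cultures a few cells pass through a like state and are called 2-cell-like cells (2CLCs), and H3K9 methylation is known to hold many of these loci silent. MERVL-GFP+ cells serve below as the measured example of that state.

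The deposited tables give 1 authors' mean per group in normalized counts (reads divided by a size factor) and, for each comparison, a log2 fold change with its standard error (SE) and adjusted p from the DESeq2 Wald test over the libraries of each group. These were the 3 clones in the dTAG-13 time course, while the labels number the sorted libraries 1 to 3 without naming a clone. Values per clone were not analysed here, so levels stand without an SD and the depth of each library is unknown. Features with an adjusted p under 0.05 that differed at least 2-fold (a log2 fold change of 1 or more either way) are named higher or lower here, or called. The means summed to 14402265 normalized counts over genes in DMSO and 14906001 in dTAG, of which mitochondrially encoded genes held 5.45% and 5.84%. dTAG-13 removes protein and not RNA, and Ehmt2 mRNA had a mean of 622 in DMSO and 582 in dTAG (log2 fold change -0.09, SE 0.22, adjusted p = 0.85).

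After 7 d of dTAG-13, 912 of 24168 tested genes were higher (3.77%) and 668 were lower (2.76%), while the median log2 fold change of all tested genes was 0.01. The 2 directions differed in size. Higher genes had a median log2 fold change of 3.05 and 596 of them (65.4%) reached at least 2, whereas lower genes had a median of -1.41 and 117 of them (17.5%) reached -2 or beyond. Of the higher genes, 62 had a mean of 0 in 1 group. Their summed means rose from 34948 to 141439 normalized counts, or from 0.243% to 0.949% of the gene sum. The summed means of the lower genes went from 93589 to 37021, or from 0.650% to 0.248%. Of the 912 higher genes, 27 reached 1000 normalized counts in dTAG, and 97 stayed under 10. In bulk RNA a rise in all cells and a rise in a few cells cannot be told apart, and the same holds for a fall.

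**Figure D1:**
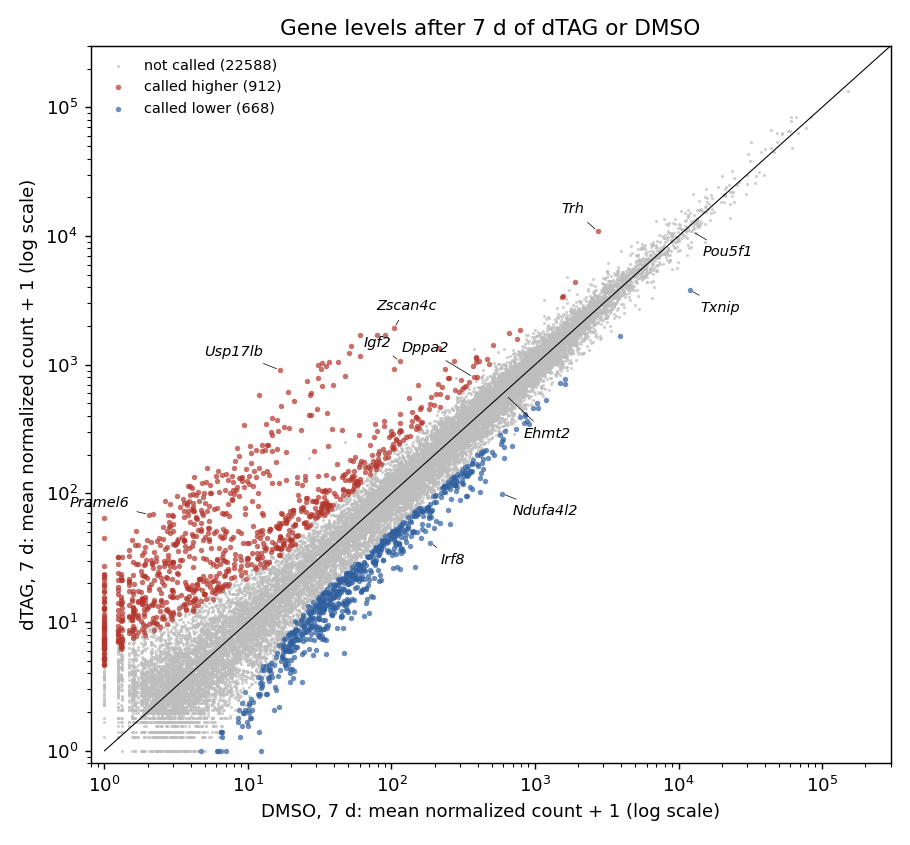
Authors' mean normalized count plus 1 of each tested gene in the 7 d DMSO group (x axis, log scale) and the 7 d dTAG-13 group (y axis, log scale), with genes called higher in red (912), called lower in blue (668) and the others in grey. Higher genes such as Zscan4c (103 to 1912) and Usp17lb (15.7 to 909) stand far above the diagonal, while most lower genes run close below it and Pou5f1 lies on it.

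Of the higher genes that reached 50 normalized counts in dTAG and were above 0 in DMSO, Gm9121, an unprocessed pseudogene, had the largest rise, from 0.660 to 50.1 (log2 fold change 6.43, SE 1.08, adjusted p = 1.9e-07). Pramel6, a PRAME-like gene of early embryos, followed at 5.91 (1.05 to 67.6) and Dcc, a receptor for the axon guidance cue netrin, at 5.88 (1.19 to 68.1). The deubiquitinase genes Usp17lb and Usp17la rose by 5.85 (15.7 to 909, adjusted p = 5.4e-64) and 5.69 (10.9 to 581). The other genes of the first 10 were 4931428L18Rik (5.66), Samd7 (5.37), Zfp352 (5.36), Gm4971 (5.32) and Gm5698 (5.29). Samd7, which encodes a SAM domain protein known from photoreceptors, rose from 1.85 to 82.3. Of the genes listed at 0 in a group, those with the highest level in the other were all at 0 in DMSO, namely Spopfm1 (63.6 in dTAG), Gm21762, Gm5541, Magea5 (22.8), Magea8 (22.2) and Zfp353-ps.

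Zscan4 genes encode zinc finger and SCAN domain proteins that mark the 2-cell-like state, and all 9 tested members were higher, with a median of 4.29. Their summed means went from 542 to 11201 normalized counts, a ratio of 20.7. Zscan4c went from 103 to 1912 (4.21, SE 0.71, adjusted p = 1.8e-07), Zscan4d from 50.9 to 1407 (4.79, SE 0.34, adjusted p = 3.3e-42) and Zscan4f from 89.2 to 1705 (4.26, SE 0.64, adjusted p = 2.5e-09). The SE was larger for Zscan4c and Zscan4f than for Zscan4d. Reads that fit several copies were put at a random best place, so the split among near-identical copies is uncertain and the family sum is the firmer value.

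The Usp17l family of deubiquitinases rose too, with 5 of 5 members higher (median 4.93) and a sum that rose from 78.5 to 2981. Promoter windows of members of these 2 families are shown as examples, because the windows differ in a plain sequence feature. Every tested member of both was higher, as in some other families below. Each runs from 250 bases before to 50 bases after the RefSeq start (GRCm38.p6), 5′ to 3′ on the gene's strand, with the letters of the motif TATAAA in capitals. The windows are chr7:11005495-11005794 (plus strand) for Zscan4c, chr7:11166099-11166398 (minus) for Zscan4d, chr7:104842534-104842833 (minus) for Usp17lb and chr7:104856766-104857065 (plus) for Usp17la.
Zscan4c: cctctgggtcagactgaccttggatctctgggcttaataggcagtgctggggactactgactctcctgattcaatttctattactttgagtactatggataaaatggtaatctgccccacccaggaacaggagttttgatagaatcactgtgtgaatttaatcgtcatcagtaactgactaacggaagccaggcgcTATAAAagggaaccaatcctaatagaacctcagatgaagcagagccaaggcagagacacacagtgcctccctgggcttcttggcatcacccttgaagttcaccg
Zscan4d: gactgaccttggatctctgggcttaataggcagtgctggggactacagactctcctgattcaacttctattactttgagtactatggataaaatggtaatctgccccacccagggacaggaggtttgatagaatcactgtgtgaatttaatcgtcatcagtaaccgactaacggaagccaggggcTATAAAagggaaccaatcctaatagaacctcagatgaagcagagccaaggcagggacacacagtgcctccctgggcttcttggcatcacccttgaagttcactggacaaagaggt
Usp17lb: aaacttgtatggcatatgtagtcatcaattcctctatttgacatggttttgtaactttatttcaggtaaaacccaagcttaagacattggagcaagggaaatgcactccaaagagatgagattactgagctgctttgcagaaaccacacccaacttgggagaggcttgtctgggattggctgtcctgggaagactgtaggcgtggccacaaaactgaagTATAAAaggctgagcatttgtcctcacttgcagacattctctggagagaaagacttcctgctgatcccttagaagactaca
Usp17la: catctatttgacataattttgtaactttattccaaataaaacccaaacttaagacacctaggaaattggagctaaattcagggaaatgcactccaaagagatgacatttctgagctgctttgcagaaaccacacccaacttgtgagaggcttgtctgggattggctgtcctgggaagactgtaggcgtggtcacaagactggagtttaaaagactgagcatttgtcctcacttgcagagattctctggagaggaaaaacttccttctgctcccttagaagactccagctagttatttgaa

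The motif began 54 bases before the start in Zscan4c, 65 in Zscan4d and 31 in Usp17lb, and the Usp17la window did not hold it. It was searched as TATAAA on both strands. On the gene's strand it stood in 4 of 4 Zscan4 members with an entry and in 3 of 4 Usp17l members, against 8.32% of all 32851 RefSeq promoter windows (13.6% on either strand). No window of a higher member held it in the Zfp352 and Tcstv group (2 windows), the Eif1a-like genes (1), or the PRAME-like (3), Spopfm and Tdpoz (7), Magea (5), Xlr (7) or Rhox (8) families. Members of 1 family are copies of related sequence, so these counts describe the letters in the windows and are not independent.

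Further 2-cell-stage families held many higher genes. All 5 members of the Zfp352 and Tcstv group were higher (median 4.94), with Zfp352 from 2.20 to 93.9 and Tcstv3 from 4.42 to 115. Genes related to translation initiation factor 1A (Eif1a-like) were higher in 9 of 9 (median 4.68), and their sum went from 150 to 3848 with Gm5662 at 41.7 and 1058. The Spopfm and Tdpoz genes, which encode MATH and BTB domain proteins, were higher in 12 of 13 (median 5.20). Of this family Tdpoz9 rose by 6.10 (0.309 to 21.4) and Tdpoz4 by 5.60 (0.968 to 42.2). Obox homeobox genes passed the expression filter of the test in 27 of 55 cases, and 21 of these were higher (median 3.62), many of them annotated as pseudogenes such as Obox4-ps12 (2.02 to 56.4). In the PRAME-like family, 10 of 13 genes were tested and 6 of these were higher, from Pramef17 at 2.88 to Pramel6 at 5.91. Listed at 0 in DMSO were 2 of the 13 Spopfm and Tdpoz genes and 1 of the 9 Eif1a-like genes. These, and members near 0 in DMSO such as Obox4-ps6 (0.242) and Tdpoz9 (0.309), passed the expression filter mainly through dTAG. The shares of tested members that were higher therefore support nothing further.

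Of 7 tested genes in a list of upstream 2-cell activators, 4 were higher, among them Zscan4d (4.79) and Zscan4c (4.21), already given with their family. The other genes of that list moved less. Duxf3, the mouse Dux copy whose protein switches on MERVL and Zscan4, rose from 7.06 to 32.7 (2.22, SE 0.49, adjusted p = 1.4e-04). Dppa2, which with Dppa4 is known to open Dux, rose from 374 to 795 (1.09, SE 0.20, adjusted p = 2.6e-06). Dppa4 itself went from 656 to 977 (0.57, SE 0.15, adjusted p = 0.0022), under the fold threshold. Its fold at 7 d was above that at 24 h by 0.87 (adjusted p = 0.0040), also under the threshold. Nelfa stood at 696 and 967 (0.47, adjusted p = 0.0051) and Dppa3 at 118 and 136 (0.20, adjusted p = 0.81). Of 18 factors known to hold the 2-cell programme off, such as Trim28 (0.33, adjusted p = 0.084), Rif1 and Chaf1a, 0 were called in either direction by the Wald test and 2 had an unadjusted p under 0.05 (median 0.09). Among 21 writers, readers and erasers of H3K9 methylation, 0 were called and 6 had an unadjusted p under 0.05, and the H3K9 demethylase gene Kdm4b had the lowest adjusted p (527 to 312, -0.76, adjusted p = 1.1e-05).

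Genes of the X chromosome were called higher more often than those of any other chromosome (93 of 980, 9.49%), and 9 of them were lower (0.918%). Chromosome 17 had 13 of 1190 higher (1.09%) and 53 lower (4.45%). Several X-linked families known from germ cells were among them. Of 10 Magea genes, cancer-testis antigens, 5 passed the expression filter of the test and were higher. Magea4 stood at 0.483 and 31.6 (5.81, SE 1.18, adjusted p = 2.9e-05) and the other 4 were listed at 0 in DMSO, so that they passed the filter through the dTAG group alone and their count supports nothing further. Of the Xlr family, X-linked lymphocyte-regulated genes, 15 of 20 were tested and 8 of these were higher (median 3.48), led in level by Xlr3c (5.93 to 105, 4.12, SE 1.06, adjusted p = 0.0017). Of the Rhox reproductive homeobox genes, 18 of 42 were tested, 3 of them listed at 0 in DMSO, and 11 of the 18 were higher (median 3.20). Xlr and Rhox members near 0 in DMSO, such as Xlr5e-ps (0.309) and Rhox2a (0.242), likewise passed the filter mainly through dTAG. Rhox5 rose from 152 to 691 (2.18, SE 0.32, adjusted p = 2.0e-09), Rhox6 from 37.6 to 316 (3.07) and Rhox9 from 27.9 to 214 (2.93). Plac1, an X-linked placental gene, went from 0.55 to 42.3 (6.20, SE 1.14, adjusted p = 2.5e-06).

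The counts of these families at the other times of the series are set side by side here, without a test between families. In the 24 h comparison 2.10% of genes were higher and 0.872% lower, at 15 d 2.99% and 0.312%, and between sorted GFP+ and GFP- cells 13.0% and 5.56%. Zscan4 members were higher in 9 of 9 tests at 24 h, at 15 d and in GFP+ cells. The Spopfm and Tdpoz genes were higher in 4 of 12 tests after 24 h, in 11 of 13 after 15 d and in 12 of 13 among GFP+ cells, and PRAME-like genes in 2 of 9, then 7 of 10, then 9 of 12. In the Xlr family 0 of 13 genes were higher after 24 h by the Wald test (0 at an unadjusted p under 0.05), 9 of 15 after 15 d, and 1 of 14 when GFP+ cells were compared with GFP- cells. For the Rhox cluster these counts were 1 of 13, then 5 of 16, then 2 of 14, and for the Magea family 0 of 3 (1 at an unadjusted p under 0.05), then 6 of 6, then 1 of 7. The 24 h and 7 d comparisons share no library, whereas the 15 d and sorted values come from tables normalized separately and are set beside them without a test. For single genes the difference between 7 d and 24 h was tested. It was called higher for 1 Xlr, 3 Rhox, 2 PRAME-like and 1 Magea gene. For the Zscan4 family and the Spopfm and Tdpoz family it was called for 0 genes. Xlr5b (4.42, adjusted p = 0.067) and Xlr5c (4.42, adjusted p = 0.33) were not called in this test. Called higher were Xlr3c (4.77, SE 1.52, adjusted p = 0.041) and, outside these families, Plac1 (5.53, SE 1.62, adjusted p = 0.022). The 2 genes parted at 15 d, where Xlr3c was higher (5.14) and Plac1 was not called (-0.04).

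**Figure D2:**
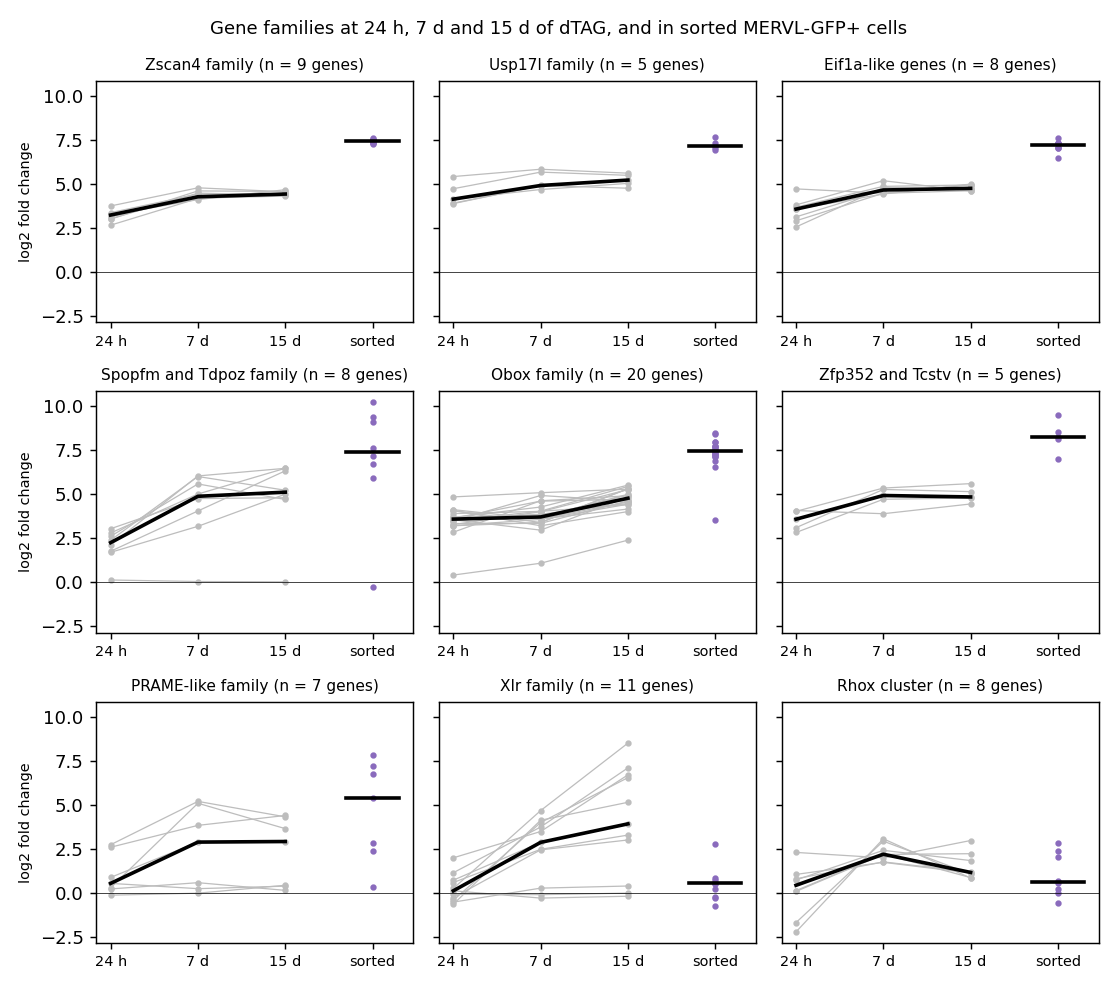
Log2 fold change (y axis) of each member of 9 gene families after 24 h, 7 d and 15 d of dTAG-13 against DMSO (grey points and lines) and in sorted MERVL-GFP+ against MERVL-GFP- cells under DMSO (purple points), with the median in black. Members tested in all 4 comparisons and above 0 in every group are shown, and the 11 Xlr genes run from a median of 0.11 at 24 h to 2.86 at 7 d with 0.55 in GFP+ cells, the 7 PRAME-like genes from 0.53 to 2.88 with 5.39, and the 9 Zscan4 genes from 3.25 to 4.29 with 7.45.

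Of the 912 genes higher at 7 d, 843 were tested at 24 h and 317 of these were already higher (37.6% of those tested, 72.0% of the 24 h list), with 2 lower and a median 24 h log2 fold change of 1.38. The difference test called the fold at 7 d above that at 24 h in 101 of the 843 and below it in 0. Among all genes it called 0.948% higher and 1.56% lower. The 7 d fold that chose this set is also a term of the difference. The sign was thus largely set in advance, and the count supports nothing further. Of 897 tested at 15 d, 491 were higher (54.7%, or 71.2% of the 15 d list) and 0 were lower by the same Wald test (3 below 0 at an unadjusted p under 0.05), with a median of 2.64. In GFP+ cells 533 of 886 were higher (60.2%, or 16.1% of the longer 2CLC list) and 19 were lower. The 533 genes shared with GFP+ cells had medians of 4.01 at 7 d, 2.51 at 24 h and 4.36 at 15 d. The 334 genes not called in GFP+ cells had medians of 1.90, 0.73 and 0.72, and 72 of 329 tested were higher at 15 d. Genes not called at 7 d had medians of 0.00 at 24 h, -0.02 at 15 d and -0.03 in GFP+ cells.

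Higher genes often lay side by side. A run was taken as at least 4 higher genes along a chromosome with fewer than 50% uncalled genes among those tested and no significant fall between them. In all, 23 runs held 240 of the 912 higher genes. The densest long run, on chromosome 3 (93628640 to 94347352, mm10), held the Spopfm and Tdpoz genes, and 23 of its 24 tested genes were higher (median 5.48), while the median of the 10 genes flanking it was 0.01. Several of its genes were listed at 0 in DMSO, such as Tdpoz2 and Spopfm1, or near 0, such as Tdpoz9 (0.309). These passed the expression filter mainly through dTAG, so the share of tested genes that were higher supports nothing further. The same limit holds for genes near 0 in DMSO in other runs. A run on chromosome 5 began at 93924777 with 28 of 30 genes higher over 1822 kb up to Gm7982, beyond which 3 more higher genes were spread thinly as far as Prkg2. On chromosome 12 a dense part of 844 kb from 87480108 held 26 higher of 36 tested genes, the Eif1a-like genes among them. The Obox cluster on chromosome 7 (14905458 to 15904020) had 21 of 28 higher, and the PRAME-like cluster on chromosome 4 (143511343 to 144364419) 13 of 17. On chromosome 10, 2 dense stretches of unnamed genes held 13 of 13 (100297941 to 100382560) and 7 of 7 (104142987 to 104196522).

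On the X chromosome the Rhox run (37213804 to 38071691) had 10 of 17 genes higher and the Xlr run (73107635 to 73398736) 10 of 14. None of the 10 higher genes of the Xlr run was called higher at 24 h by the Wald test (1 at an unadjusted p under 0.05), and all 10 were higher at 15 d. The share called higher across all genes at those times stands above. A run of ferritin-like Fthl17 genes (8962134 to 9063861) had 6 of 7, at lower folds (median 1.70). Since tandem copies share reads, neighbours in a run are not independent measurements. By annotated type, unprocessed pseudogenes, which arise by gene duplication, were higher in 78 of 281 (27.8%) and lincRNA genes in 76 of 920 (8.26%), against 616 of 16199 protein-coding genes (3.80%).

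**Figure D3:**
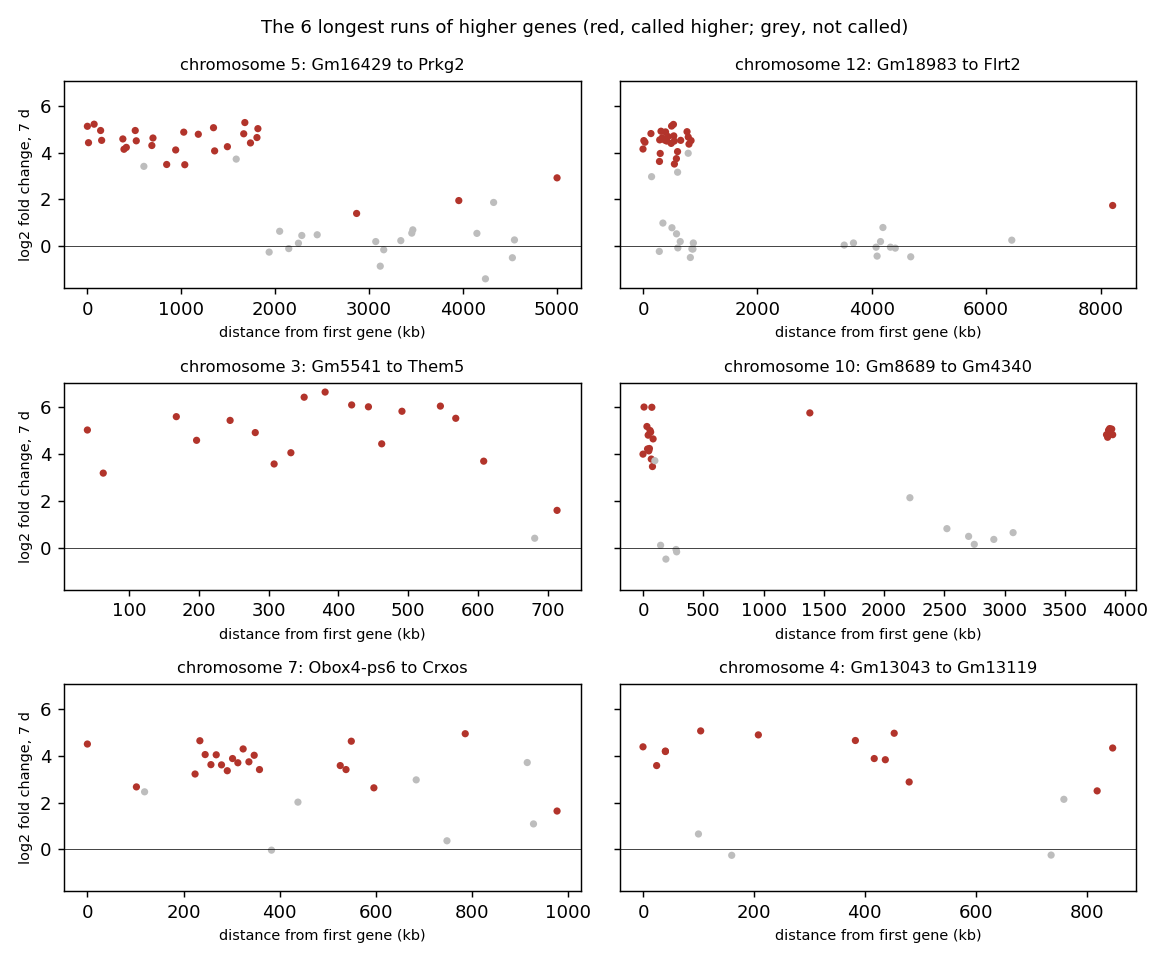
Log2 fold change at 7 d (y axis) of the tested genes in the 6 longest runs of higher genes against the distance of each gene from the first gene of its run in kb (x axis), red where called higher and grey where not. Genes listed at 0 in a group are not drawn. The runs on chromosomes 5 and 12 show dense stretches followed by sparse ones, and that on chromosome 10 has a sparse stretch between dense ones. The run on chromosome 3 holds 23 higher genes among 24.

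Calls among pluripotency and lineage genes are to be read against 3.77% higher and 2.76% lower among all genes. Of 20 naive markers 1 was called, the transcription factor gene Gbx2 (111 to 239, 1.11, SE 0.30, adjusted p = 0.0036). In this list 7 had an unadjusted p under 0.05, and the median was 0.01. Pou5f1 stood at 12333 and 10933 (-0.17, SE 0.10, adjusted p = 0.25), Sox2 at 5500 and 5055 (-0.12, adjusted p = 0.67), Nanog at 5905 and 6656 (0.17, adjusted p = 0.61), Klf4 at 5953 and 6071 and Esrrb at 11200 and 11371. Zfp42 had 3733 and 4903 (0.39, adjusted p = 0.030), and Dppa5a 15198 and 9055 (-0.75, adjusted p = 9.0e-04), both under the fold threshold. Of 16 formative and primed genes 0 were called (median 0.62) and 9 had an unadjusted p under 0.05. The lineage lists had 0 of 13 endoderm genes called (also 0 at an unadjusted p under 0.05), 1 of 21 neural genes (Tubb3, 786 to 1847) and 2 of 12 mesoderm genes. In the mesoderm list Hand1 rose (6.31 to 82.1, 3.70) and Tbx6 fell (33.9 to 8.37, -1.93). Neither Hand1 (-0.57) nor Tbx6 (-0.23) was called at 15 d. Among 9 writers and erasers of DNA methylation 0 were called and 1 had an unadjusted p under 0.05, with Dnmt3l at 983 and 886 (-0.15, adjusted p = 0.71).

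**Figure D4:**
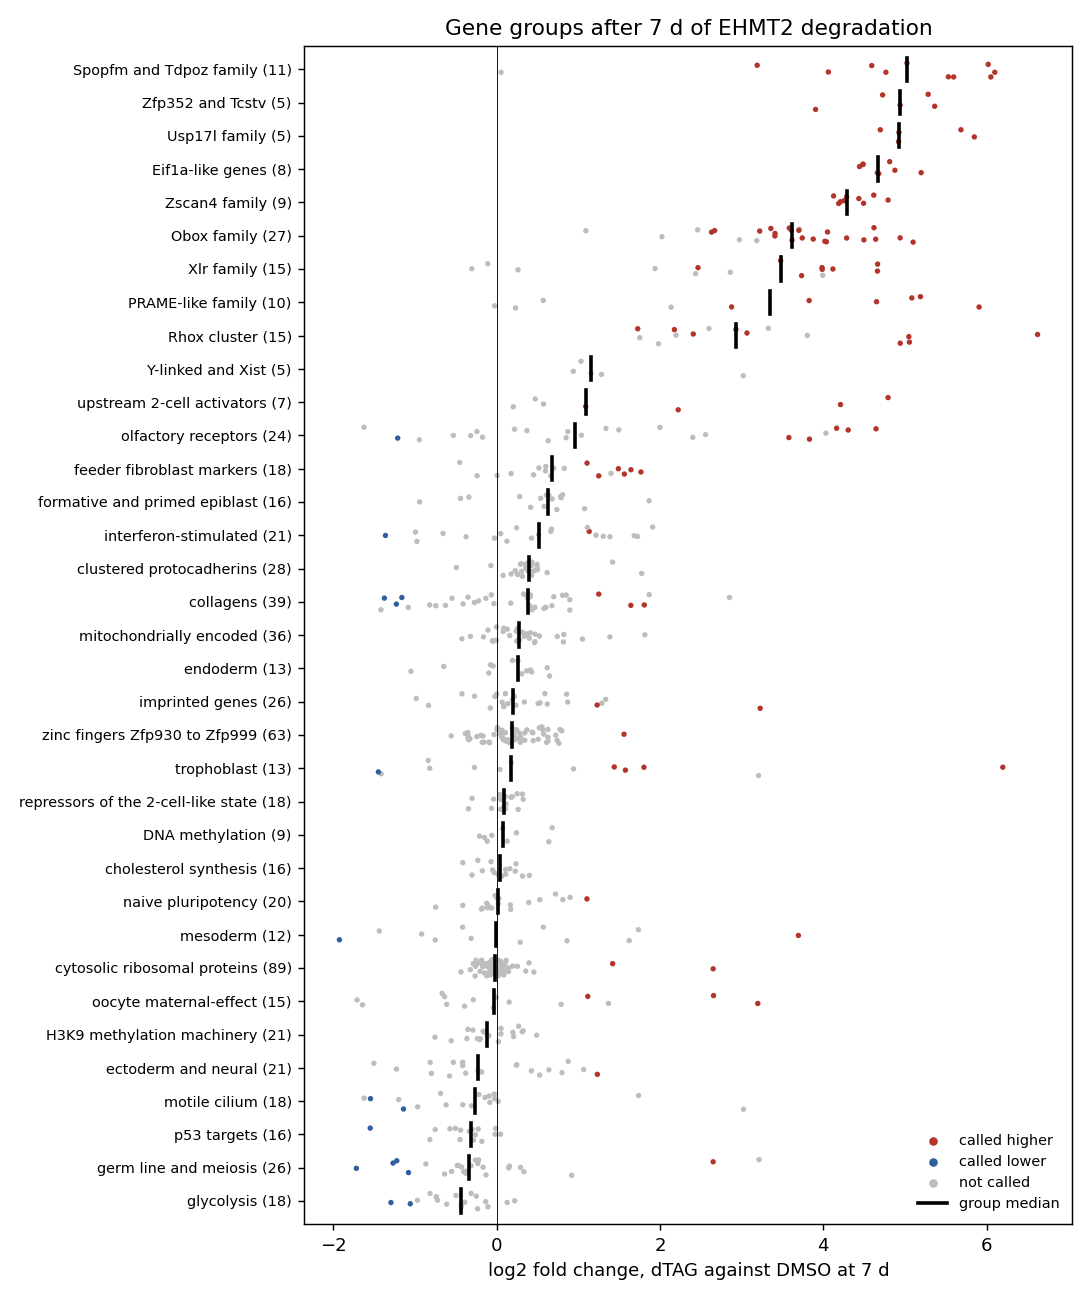
Log2 fold change at 7 d (x axis) of the tested members of each gene group (rows, with the number of genes drawn), red where called higher, blue where called lower and grey where not called, with the group median as a black bar. Genes listed at 0 in a group are not drawn, the Zscan4 (4.29) and Usp17l (4.93) families sit far to the right, and naive pluripotency, H3K9 machinery and ribosomal protein groups sit near 0.

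Trophoblast and epithelial genes moved in both directions. Of 13 trophoblast genes 4 were higher, namely Plac1, Gata3 (4.77 to 16.9, 1.80), Krt8 (224 to 670, 1.58) and Krt18 (217 to 590, 1.44). The stem cell regulator gene Ascl2 was lower (76.1 to 28.0, -1.45). Krt8 and Krt18 encode the keratin pair of simple epithelia, and Krt14 (4.97 to 21.8), Krt13 and Krt42 were also higher, while Krt80 was lower. At 24 h Krt8 and Krt18 had stood at -0.49 and -0.90, and the difference between the times was 2.06 (adjusted p = 4.6e-04) and 2.34 (adjusted p = 4.8e-04). By 15 d none of the 12 tested trophoblast genes was called, with Krt8 at -0.09 and Krt18 at -0.30. Igf2, an imprinted growth factor gene, went from 113 to 1060 (3.23, SE 0.75, adjusted p = 3.9e-04), with an antisense transcript (Igf2os) overlapping it, whose reads cannot be told apart from its own if strand was not used in counting. Peg10, another imprinted gene, rose from 1887 to 4430 (1.23), and these were 2 of 26 imprinted genes called. Neither Igf2 (0.22) nor Peg10 (0.05) was called at 15 d.

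Some contractile and matrix genes were higher, in families chosen after their values were seen except for the collagens. Among 34 actin, myosin and related genes, 10 were higher and 2 lower, with Actc1 (3.72 to 51.8, 3.80), Acta1 (75.7 to 345, 2.18), Acta2 (252 to 787, 1.64, SE 0.53, adjusted p = 0.018) and Myl9 (186 to 565, 1.60) among those that rose. Tagln, an actin-binding protein of smooth muscle, went from 507 to 1425 (1.49, SE 0.26, adjusted p = 9.2e-07). The collagens split evenly, with Col5a2 (97.5 to 304), Col6a5 and Col3a1 (34.6 to 81.6) higher and Col17a1, Col5a3 and Col20a1 lower, of 39 tested. Many of these genes are also active in fibroblasts, and the feeder layer was made of them. Of 18 fibroblast markers 6 were higher (S100a4, Acta2, Timp3, Tagln, Col3a1 and Prrx1) and 0 lower, also at an unadjusted p under 0.05 (median 0.68), and 0 of the 18 were listed at 0 in DMSO. The summed level of the list was 13515 in DMSO and 17131 in dTAG at 7 d, and 19026 and 17490 at 24 h, so that both 24 h groups lay above both 7 d groups. The share of feeder RNA in the result was not tested. At 15 d Acta2 (-0.02) and Tagln (-0.14) were not called, where Timp3 stood at 0.64. The Y-linked and Xist list had 0 of 5 genes called (1 at an unadjusted p under 0.05), with Ddx3y at 26.1 and 63.0 (1.28, adjusted p = 0.12).

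Other abundant genes that rose included the hypothalamic hormone precursor gene Trh (2733 to 10879, 1.99, SE 0.65, adjusted p = 0.018). Inhba, an activin subunit gene, went from 270 to 1072 (1.99), the macrophage growth factor gene Csf1 from 388 to 1132 (1.55) and the cyclin gene Ccnd2 from 407 to 1071 (1.40). Rpl10l, a testis-expressed copy of a ribosomal protein gene, rose from 214 to 1347 (2.65, SE 0.27, adjusted p = 9.5e-20). It was 1 of 2 cytosolic ribosomal protein genes called among 89, the other being Rpl39l (114 to 307, 1.42). Of 15 oocyte maternal-effect genes 3 were higher, Bmp15, Khdc3 (217 to 470) and Nlrp14 (21.1 to 133, 2.66, adjusted p = 4.3e-21). Nlrp4c, of the same NACHT domain family, went from 6.79 to 135 (4.30). The germ line list moved otherwise, since 4 of 26 genes were lower, among them the meiotic cohesin genes Rec8 (199 to 94.9, -1.08) and Stag3 (735 to 315, -1.22), the meiotic regulator gene Meioc (611 to 186, -1.72) and Stra8, and 1 was higher (Rpl10l). Of 1410 olfactory receptor genes 27 passed the expression filter, 3 of them listed at 0 in DMSO, and of these 7 were higher and 1 lower, at low levels such as Olfr376 (0.901 to 21.8). Of 63 recently evolved zinc finger genes, 1 was called, Zfp951 (159 to 471, 1.56), and of 28 clustered protocadherins 0 were called, with 6 at an unadjusted p under 0.05 (median 0.39).

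Lower genes changed by less than the higher ones. The largest falls among well-expressed genes were those of the glycosyltransferase gene B4galnt2 (63.5 to 10.1, -2.67, SE 0.37, adjusted p = 1.2e-10) and the spectrin gene Sptbn5 (68.8 to 10.8, -2.63), which overlaps Pla2g4b on the other strand. Ndufa4l2, a mitochondrial protein gene induced by low oxygen, fell from 588 to 98.8 (-2.58, SE 0.24, adjusted p = 4.2e-25). The epithelial sodium channel subunit gene Scnn1a fell from 145 to 26.0 (-2.52, SE 0.27, adjusted p = 2.7e-18). Transcription factor genes of blood lineages were in the set, with Irf8 at 185 and 40.5 (-2.22) and Spib at 51.5 and 9.85 (-2.43). Rnf43, which encodes a ubiquitin ligase that removes Wnt receptors from the membrane, fell from 53.5 to 11.0 (-2.32). The other 3 of the 10 were Epha10 (-2.33), the atypical cadherin gene Fat2 (-2.32) and Psd2 (-2.25).

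Counts follow for some families chosen after their values were seen, to be read against 2.76% lower and 3.77% higher among all genes. All 3 called calcium and sodium channel genes of 34 tested were lower (Cacna1h at 253 and 57.0, Cacng6 at 433 and 184, and Scnn1a). Potassium channels had 7 lower and 3 higher of 74, and solute carriers 16 lower and 8 higher of 307. Of 27 integrin genes 3 were lower, with Itgb4 at 161 and 43.8 (-1.88). Of 18 motile cilium genes, a list not chosen in this way, 2 were lower, Dnah1 (85.9 to 29.6) and Dnaic1 (77.2 to 35.3).

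Txnip and Ddit4 were among the abundant lower genes and have known roles in glucose uptake and growth control. Txnip, which limits glucose uptake, fell from 12028 to 3803 (-1.66, SE 0.23, adjusted p = 1.3e-10) and had the highest level of all lower genes. Ddit4, an inhibitor of mTORC1 signalling induced by stress, fell from 3905 to 1678 (-1.22, SE 0.24, adjusted p = 2.2e-05). Neither Txnip (0.24) nor Ddit4 (0.17) was called at 15 d. Of 18 rows of the glycolysis list, 2 were called lower and 16 were not called, the hexokinase gene Hk1 (1613 to 775, -1.06, adjusted p = 9.9e-08) and a small second row named Aldoa (22.6 to 9.44) that overlaps another gene. The median of the list was -0.43, 2 of the 18 lay above 0, and the summed means went from 143394 to 112963. At 24 h the sum ran the other way, from 122455 in DMSO to 144193 in dTAG, so the DMSO sums of the 2 times differed too. None of the 18 was called at 24 h (median 0.13) or at 15 d (median -0.12) by the Wald test. At 24 h 7 of the 18 lay above 0 with an unadjusted p under 0.05. Below the fold threshold with an adjusted p under 0.05 were Gpi1 (-0.97), Pfkl (-0.82), Pfkm (-0.74), the main Aldoa row (-0.72), Pgk1 (-0.61) and Eno1 (-0.43). Of 16 p53 targets 1 was lower, the stress cytokine gene Gdf15 (143 to 48.7, -1.55), and 1 of the 16 lay above 0 (median -0.32). Cholesterol synthesis genes had 0 of 16 called and 1 at an unadjusted p under 0.05 (median 0.04). The interferon-stimulated list had 1 higher (Ifit2, 58.9 to 129) and 1 lower (Dhx58, 30.7 to 11.9) of 21.

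The lower genes were followed through the other comparisons. Of 665 tested at 24 h, 56 were lower (8.42%, or 30.6% of the 24 h list, against 0.872% of all genes) and 7 higher, with a median of -0.31. The difference test called the fold at 7 d below that at 24 h in 172 and above it in 0. The 7 d fold chose this set too, so that count supports nothing further. Of 656 tested at 15 d, 14 were lower (2.13%, or 19.4% of the 15 d list, against 0.312% of all genes) and 2 higher, with a median of -0.24. In GFP+ cells 117 of 658 were lower (17.8%, or 8.26% of that list, against 5.56% of all genes) and 46 higher. Opposite calls at 24 h and 7 d were made for 9 genes. Of these, 7 were higher at 24 h and lower at 7 d, among them Rab3il1 (1.02 and -1.86), Ascl2 (1.27 and -1.45) and Cdk5r2 (1.32 and -1.18), and 2 went the other way, Mir1306 and the BMP antagonist gene Grem1 (-1.12 and 1.82). The DMSO means of Ascl2 were 29.1 at 24 h and 76.1 at 7 d, and those of Grem1 were 170 and 54.3, and between these controls the adjusted p of the Wald test was 0.060 for Ascl2 and 0.031 for Grem1.

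Higher and lower protein-coding genes differed in build. By the longest transcript in GENCODE vM21, the median GC content was 46.8% for the 616 higher genes, 55.5% for the 551 lower genes and 50.1% for those not called. The median number of exons was 5, 9 and 7, and the median count of CpG in the first 300 bases was 7, 14 and 18. The median level over the groups was 27.5, 45.7 and 226 normalized counts in the same order, so both called sets were less abundant than the rest. The part of GC content in the counts was not tested.

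Repeat families were counted beside genes, each as the sum of its copies across the genome. Of 970 tested families, 24 were higher (2.47%) and 11 lower (1.13%), with a median of -0.12. MERVL-int, the internal part of the 2-cell retrovirus, rose from 5074 to 80321 (3.98, SE 0.31, adjusted p = 1.1e-34), and MT2_Mm, its terminal repeat and promoter, from 766 to 10398 (3.76, SE 0.25, adjusted p = 4.8e-47). The related MERVL_2A-int (545 to 1713, 1.65) and ERVL-B4-int (63.6 to 177, 1.48) were also higher. Summed over 94 tested families, ERVL means went from 13712 to 100541, a ratio of 7.33.

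ERVK families moved in opposite ways. Of 271 tested, 11 were higher and 2 lower, led by RLTR45-int (241 to 2525, 3.39, SE 0.59, adjusted p = 6.6e-07), ERVB4_2-LTR_MM (18.6 to 160, 3.09), RLTR10D2 (23.3 to 126, 2.41) and IAPEy-int (31.2 to 138, 2.14). Yet the summed ERVK means went from 288043 to 193226, a ratio of 0.671. The DMSO sum at 24 h was 196304, close to that of dTAG at 7 d. The most abundant of them were early transposon families, with MMETn-int at 148473 and 89430 (-0.73, SE 0.29, adjusted p = 0.066) and ETnERV-int at 46402 and 27263 (-0.77, SE 0.28, adjusted p = 0.042), neither past the fold threshold. At 24 h the same 2 families had stood at 0.60 and 0.56, and the difference between the times was called lower for both (-1.33, adjusted p = 0.030, and -1.32, adjusted p = 0.024). The DMSO means of both had been lower at 24 h (93600 and 28335), although the controls of the 2 times were not called as different (adjusted p = 0.36 and 0.29). The difference test called 1.60% of repeat families higher and 0.458% lower. IAPEz-int, the main intracisternal A particle, had 14227 and 12770 (-0.16, adjusted p = 0.57).

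The satellite GSAT_MM, the major satellite of pericentromeres, rose from 14.2 to 63.0 (2.14, SE 0.44, adjusted p = 3.7e-05) at a low level. Among young LINE-1 families, L1Md_A had 8529 and 17479 (1.04, SE 0.41, adjusted p = 0.069) and L1Md_T 14879 and 19499 (0.39, adjusted p = 0.69), and neither was called. Lx3B was the 1 higher L1 family (169 to 500, 1.56) and L1MDa the 1 lower (234 to 116, -1.01). X7C_LINE, an old CR1 element, rose from 10.8 to 92.2 (3.10), and ORR1A0-int from 2052 to 4133 (1.01). Further lower families included MLT2C2 (133 to 47.9, -1.47), RLTR10D (146 to 67.9, -1.10), hAT-N1_Mam (54.6 to 22.4) and MER91B (25.7 to 7.56). No SINE family of 35 was called by the Wald test and 2 had an unadjusted p under 0.05, of which B2_Mm1a went from 18948 to 28971 (0.61, adjusted p = 9.2e-04).

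The 24 higher families were higher in 5 of 23 tests at 24 h, where 0.686% of families were higher and 0.229% lower. They were higher in 13 of 24 tests at 15 d, where 4.12% of families were higher and 0.217% lower. In GFP+ cells 24 of 24 were higher, where 56.0% of all families were higher and 0.472% lower. These cells were sorted on a reporter driven by MERVL promoter elements, so that MERVL-int and MT2_Mm were higher there is no independent result. Of the 11 lower families 0 of 9 were called at 24 h and 0 of 10 at 15 d by the Wald test (4 and 0 at an unadjusted p under 0.05), and 6 of 10 were higher in GFP+ cells. MERVL-int and MT2_Mm stood at 2.44 and 2.16 at 24 h, and their differences between 7 d and 24 h were 1.54 (adjusted p = 0.016) and 1.61 (adjusted p = 9.0e-04). Single copies of a repeat were not told apart in these counts.

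**Figure D5:**
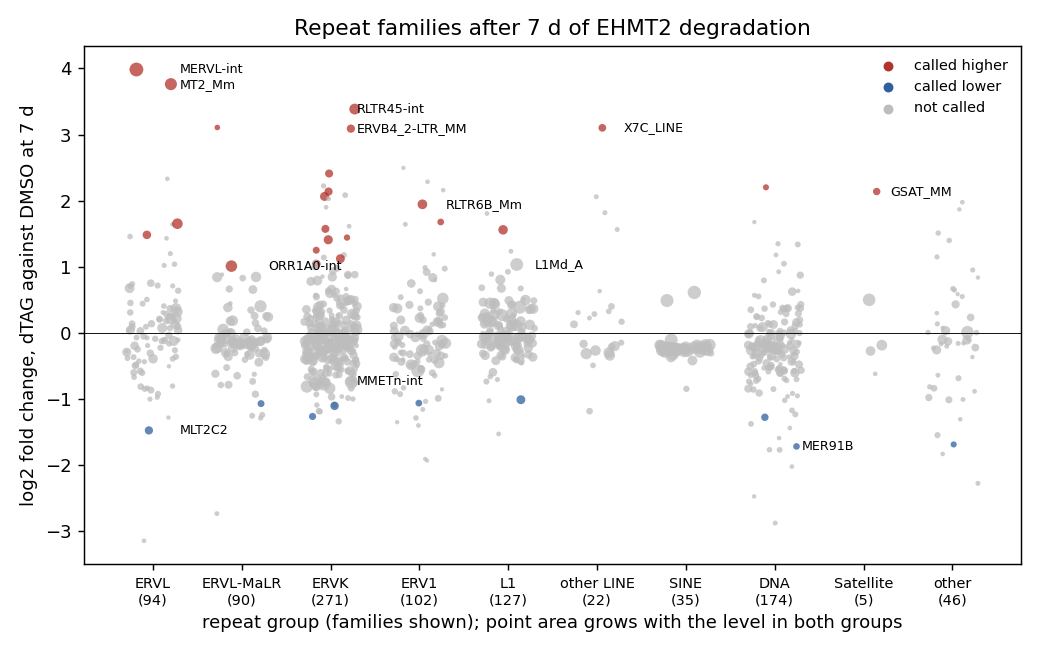
Log2 fold change at 7 d (y axis) of the tested repeat families above 0 in both groups, by repeat group (x axis, number of families in brackets), red where called higher, blue where called lower and grey where not, with larger points for higher levels. MERVL-int (3.98) and MT2_Mm (3.76) stand at the top of ERVL, the abundant MMETn-int (-0.73) lies below 0 among ERVK, and SINE families form a band just below 0.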

How the data were processed

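Total RNA of the dTAG-13 time course and the washout experiment was sequenced as stranded poly-A libraries. The sorted cells were sequenced as low-input libraries made by another provider, for which no stranded preparation is stated. The authors trimmed reads with Trim Galore 0.6.7, aligned them to mm10 with STAR 2.7.10 (reads with many best places kept at 1 random place), counted GENCODE genes and repeat families with TEcounts, whose strand setting is not given in the sources used here, and ran DESeq2 1.34.0 over genes and repeats together. The deposited signal columns are the authors' group means of counts divided by size factors. Log2 fold changes with their SE (the deposited log2 columns) and the deposited p-value columns come from the authors' Wald tests, and an empty adjusted p was taken as not tested. No per-library value was used, so depth, an SD or a refit could not be given.

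Calls used an adjusted p under 0.05 and an absolute log2 fold change of at least 1. The difference of the 7 d and 24 h effects used the root of the summed squared SEs, normal two-sided p-values and adjustment by Benjamini-Hochberg over genes and repeats (SciPy 1.17.1, pandas 2.3.3), and was tested on simulated data, as was the search for runs. That test takes the estimates at both times as independent, although the same 3 clones were used. Positions and transcripts came from GENCODE vM21 (GRCm38), in which 40 tested genes had no position. Genes were named by rule: the 10 largest changes a direction with a mean of at least 50, up to 6 called members of each list a direction, the highest genes at 0 in a group, called repeat families, and members of the 6 longest runs. Abundant genes (means of at least 1000), families of membrane transport, cytoskeletal and keratin genes, and other genes outside this rule were chosen after their values were seen. Members and lists were chosen with earlier results of these data known. Some called genes are not reported here.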

Additional observations from a re-analysis of the deposited data

Results flagged for a closer look

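The 7 d effect differed from the 24 h effect, by the test of the difference itself, in 35 of the named genes and 16 repeat families above 0 in all 4 groups. The values below are the 7 d log2 fold change minus the 24 h one, each with an adjusted p under 0.05 and an absolute difference of at least 1. Where a gene or family was named for its 7 d fold, that fold is also a term of the difference and favours its sign.

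The 13 genes whose difference was negative fall into those above 0 at 24 h and those at or below 0 there. Above 0 at 24 h and below 0 at 7 d were Ndufa4l2 (-3.11), Rnf43 (-3.11), Spib (-3.02), Ascl2 (-2.72), Ddit4 (-2.07), Col5a3 (-1.72) and Epha10 (-2.56). Already below 0 at 24 h were Scnn1a (-2.36), B4galnt2 (-2.28), Irf8 (-2.13), Sptbn5 (-1.83), Psd2 (-1.81) and Txnip (-1.35). Ndufa4l2 had the strongest difference of these (SE 0.33, adjusted p = 2.2e-17), at 0.53 and -2.58.

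Of the 22 genes with a positive difference, Pramel6 (5.76), Pramel7 (4.80), Plac1 (5.53), Hand1 (3.72), Igf2 (4.49), Gata3 (3.03) and Xlr3c (4.77) belong to placental, early embryonic or X-linked sets and had 24 h values from -1.26 (Igf2) to 0.67 (Plac1). Epithelial, matrix and other genes that stood below 0 at 24 h were Krt8 (2.06), Krt18 (2.34), Col3a1 (2.10), Epha4 (1.60), Zfp951 (1.71) and Gm8378 (3.00). Gm8378, a member of the chromosome 12 run, was at 0.80 at 7 d and not called there. The remaining genes had risen at 24 h and were higher again at 7 d, namely Rpl10l (1.42), Gm8332 (1.48), Gm13043 (2.08), Gm18983 (2.08), BB287469 (2.13), Gm1995 (2.17), Gm4971 (2.23), Gm4027 (2.24) and Samd7 (2.68).

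Among repeat families, RLTRETN_Mm (-1.44), RLTR13G (-1.43), MMETn-int (-1.33) and ETnERV-int (-1.32) were above 0 at 24 h and below 0 at 7 d, and none of the 4 was called at either time by the Wald test (all 4 at 7 d and 3 at 24 h had an unadjusted p under 0.05). The 12 with a positive difference were MERVL_2A-int (1.00), RLTR13B1 (1.11), ERVL-B4-int (1.32), IAPEy-int (1.34), RLTR10D2 (1.36), ETnERV3-int (1.47), MERVL-int (1.54), MT2_Mm (1.61), ERVB4_2-I_MM-int (1.82), RLTR13B2 (1.91), ERVB4_2-LTR_MM (2.08) and GSAT_MM (2.16). The satellite GSAT_MM stood at -0.02 at 24 h and 2.14 at 7 d (adjusted p of the difference = 0.032).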

How the results depend on the processing

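No paired analysis was possible because the deposited tables used here hold 1 mean per group and the authors' fits, so no library could be matched by clone. For the same reason a replicate block, the omission of each clone, TMM or other size factors, an edgeR, DESeq2 or limma refit, a change of the low-count filter and a pseudocount of 0.5 were not run, and how far 1 clone carries a call is unknown here. With an absolute log2 fold change of at least 2, 713 genes were called (596 higher, 117 lower) and 14 repeat families (12 higher, 2 lower). With no fold threshold there were 3787 genes (2037 and 1750), 62 repeat families (42 and 20) and 33 lower list members. An adjusted p under 0.01 left 5 lower repeat families, as did adjustment over repeat families alone, and it left 290 gene differences from 24 h (99 higher, 191 lower) and 8 repeat differences (8 higher, 0 lower). With no threshold on the difference there were 1036 genes (455 higher, 581 lower). No value of a named gene or family changed sign with a ratio of group means, and with a pseudocount of 10 in place of the fitted fold 36 of 332 fell under the fold threshold. The next 2 alternatives were added after seeing the data. Against the DMSO 24 h mean as a second control, 790 of the higher and 486 of the lower genes were also at least 2-fold apart. With at most 3 uncalled genes in a row, 24 runs held 235 higher genes. Overlap with a gene on the other strand (239 of 912 higher and 260 of 666 lower genes with a position) limits single genes if strand was not used in counting.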
